A study of Mus musculus with 4 samples.

Results

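The 34 genes described here encode the enzymes of glycolysis and the oxygen-sensing pathway that can induce them. They were chosen by symbol, and all 34 were found in the count tables, in 35 of 32286 gene rows, because Aldoa had a second row. By role they were the preparatory glycolytic enzymes Hk1, Hk2, Gpi1, Pfkl, Pfkm, Pfkp, Pfkfb3, Aldoa, Aldoc and Tpi1, the payoff enzymes Gapdh, Pgk1, Pgam1, Eno1, Eno2 and Pkm, and the lactate dehydrogenases and pyruvate dehydrogenase kinases Ldha, Ldhb, Pdk1 and Pdk4. The oxygen-sensing genes were Hif1a, Epas1, Arnt, Vhl, Egln1 and Egln3, and the remaining 8 were the hypoxia response genes Bnip3, Bnip3l, Ankrd37, Ddit4, Ndrg1, Hmox1, Higd1a and Mif.

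Endothelial cells (ECs) make most of their ATP by glycolysis, and sprouting ECs are known to raise glycolytic flux through PFKFB3, whose product activates phosphofructokinase. In normal oxygen, prolyl hydroxylases of the EGLN family mark the α subunits of the hypoxia-inducible factors (HIFs), encoded by Hif1a and Epas1, for recognition by VHL and degradation. When oxygen falls, the α subunits pair with ARNT and induce glycolytic enzymes, the kinase PDK1 that inhibits pyruvate dehydrogenase, and the hydroxylase EGLN3 itself.

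Microvascular fragments were pulled from brains of 3-month-old mice with beads carrying an antibody to PECAM1, a surface protein of ECs, and profiled with 10x Genomics 3′ single-cell RNA sequencing, 1 library per mouse. There were 2 Angpt2+/+ mice (WT) and 2 Angpt2-/- mice (KO), and in each genotype mouse 1 was female and mouse 2 was male, so sex and replicate number cannot be told apart. The cells came from independent experiments that the labels do not tie to mice, so the main tests held no batch term. Fits with replicate number as a block are given among the alternatives. The KO allele is constitutive, made by crossing a floxed line with Pgk-Cre and backcrossing to C57BL6/J, and because only exon 4 of Angpt2 is deleted, 3′ counts of Angpt2 do not check the genotype. The beads enrich ECs, so mural cells and microglia were sampled as passengers.

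Filtering at more than 500 genes and under 10% mitochondrial UMIs (unique molecular identifiers, counted transcripts) left 17999 of 19809 barcodes, 2900 to 5742 per mouse, with 31753395 to 42903731 UMIs per mouse. Members and other listed genes took no part in clustering. ECs numbered 2085 to 4699 per mouse, pericyte-like cells 74 to 205, smooth muscle-like cells 52 to 265 and microglia-like cells 161 to 269. The defining EC markers were all detected in ECs of every mouse. The pericyte-like cells carried a sum of 12936 to 14294 CPM over 10 pericyte markers and 10215 to 11546 over 10 EC markers, and only 13 of 598 of them had 20% or less of their marker UMIs from another cell type, so most of them carried EC transcripts too. Values below are UMIs per 1000000 UMIs of the class (CPM), summed over the cells of a mouse, and groups of 4 values run WT mouse 1, WT mouse 2, KO mouse 1, KO mouse 2.

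Promoter sequences are shown for 6 members on which the results turn, 5 that rose and 1 that fell in the KO ECs richest in Apln transcripts. They are RefSeq sequences on GRCm38.p6, from 250 bases before to 50 bases after the annotated start, written 5′ to 3′ on the strand of the gene. Capitals mark the core of the HIF response element, searched as ACGTG and GCGTG on both strands, with overlapping matches counted separately.
Egln3 (chr12:54203825-54204124, minus strand): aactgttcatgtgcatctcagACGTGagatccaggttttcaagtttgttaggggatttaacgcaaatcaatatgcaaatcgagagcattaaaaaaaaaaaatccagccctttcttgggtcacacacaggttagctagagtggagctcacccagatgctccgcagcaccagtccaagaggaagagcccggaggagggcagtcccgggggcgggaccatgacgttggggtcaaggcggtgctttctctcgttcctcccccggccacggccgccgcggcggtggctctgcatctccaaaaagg
Ankrd37 (chr8:45999801-46000100, minus strand): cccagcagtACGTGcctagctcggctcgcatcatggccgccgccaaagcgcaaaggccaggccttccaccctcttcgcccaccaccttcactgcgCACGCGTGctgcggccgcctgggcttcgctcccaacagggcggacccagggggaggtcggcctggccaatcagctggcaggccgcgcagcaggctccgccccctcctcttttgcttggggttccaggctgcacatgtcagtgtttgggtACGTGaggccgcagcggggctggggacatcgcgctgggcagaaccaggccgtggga
Pfkp (chr13:6648722-6649021, minus strand): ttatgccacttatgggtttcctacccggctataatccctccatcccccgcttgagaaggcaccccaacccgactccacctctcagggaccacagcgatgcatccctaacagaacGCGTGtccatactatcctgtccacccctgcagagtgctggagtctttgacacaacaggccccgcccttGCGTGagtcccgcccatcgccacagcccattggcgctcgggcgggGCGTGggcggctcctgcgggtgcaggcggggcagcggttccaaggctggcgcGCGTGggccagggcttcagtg
Pgk1 (chrX:106186850-106187149, plus strand): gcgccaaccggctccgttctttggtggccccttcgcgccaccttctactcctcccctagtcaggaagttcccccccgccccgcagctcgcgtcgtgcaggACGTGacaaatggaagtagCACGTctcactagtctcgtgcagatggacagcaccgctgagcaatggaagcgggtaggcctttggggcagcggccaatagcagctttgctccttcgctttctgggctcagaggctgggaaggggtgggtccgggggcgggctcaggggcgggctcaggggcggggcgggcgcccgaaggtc
Gpi1 (chr7:34230287-34230586, minus strand): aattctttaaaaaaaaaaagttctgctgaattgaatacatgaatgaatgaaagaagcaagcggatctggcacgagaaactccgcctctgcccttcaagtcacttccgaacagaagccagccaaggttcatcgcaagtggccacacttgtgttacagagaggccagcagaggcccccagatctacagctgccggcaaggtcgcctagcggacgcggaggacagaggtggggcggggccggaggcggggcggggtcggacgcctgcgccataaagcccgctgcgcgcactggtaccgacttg
Ddit4 (chr10:59951721-59952020, minus strand): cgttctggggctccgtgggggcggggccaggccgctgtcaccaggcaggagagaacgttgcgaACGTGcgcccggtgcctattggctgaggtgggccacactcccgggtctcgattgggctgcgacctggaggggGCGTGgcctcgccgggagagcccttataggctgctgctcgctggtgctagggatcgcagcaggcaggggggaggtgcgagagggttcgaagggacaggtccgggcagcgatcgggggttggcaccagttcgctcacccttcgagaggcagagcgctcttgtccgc
The Ankrd37 and Pfkp windows held 4 matches each, a number reached by 3.94% of 27025 promoters of the same length, whereas the Egln3 window held 1 and the Gpi1 window held 0. Of the 30 members with an entry, 23 (76.7%) held at least 1 match, against 43.8% of all promoters. The share was 76.5% of the 17 members called higher in those Apln-rich ECs and 75.0% of the 8 not called. A match is a run of letters and not a shown binding site. Epas1, Bnip3l, Ndrg1 and Hmox1 had no entry.

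The zones of the vascular tree differed in which members they carried most. ECs fell into arterial-like, capillary-like and venous-like clusters and an angiogenic-like cluster that held 1.27% and 0.575% of the ECs of the WT mice and 40.6% and 21.7% of those of the KO mice, only 41 and 27 cells in the WT mice. Of the 32 members at 1 CPM or more, the highest mean over the 4 mice was in the angiogenic-like cluster for 14, in the venous-like for 12, in the arterial-like for 5 and in the capillary-like for 1. Over all mice venous-like cells were the deepest, with a median of 15528 UMIs a cell, but in KO mouse 2 their median of 4887.5 was below that of the angiogenic-like cluster at 5824. These are descriptions of clusters of the same cells, with no test, and 21 of the 32 kept their highest zone at a finer clustering resolution, where the angiogenic-like cluster held only 69 cells, 0 and 1 of them from the WT mice. The zones were other sets of cells at that resolution. An unnamed cluster of 1899 cells held 820 and 997 cells of the KO mice, and the clusters named venous-like included 1 of 2608 cells beside 1 of 720.

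Epas1, which encodes HIF-2α, was the most abundant of the oxygen-sensing genes, at 1808, 1664, 1916 and 2233 CPM in arterial-like ECs and 1032, 889, 1128 and 1232 in venous-like ECs. Hif1a ran the other way, at 77.1, 72.5, 74.0 and 58.8 in arterial-like ECs, 124, 122, 124 and 118 in capillary-like ECs, and 224, 176, 222 and 200.2 in venous-like ECs. The arterial and venous values of each gene did not overlap, in opposite directions, in any of the 4 mice. Ddit4, which encodes an inhibitor of mTORC1 signaling, peaked in venous-like ECs at 218, 215, 237 and 196 CPM and was lowest in the angiogenic-like cluster at 45.9, 39.9, 31.9 and 30.5. Ndrg1, a hypoxia- and differentiation-responsive gene, had the same order at its ends, with 682, 585, 723 and 724 in venous-like and 428, 339, 307 and 376 in angiogenic-like ECs.

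The glycolytic enzymes had their own zone patterns. Pfkp, which encodes the platelet isoform of phosphofructokinase, was at 13.6, 12.4, 11.8 and 16.2 CPM in capillary-like ECs and 23.4, 30.9, 28.5 and 40.3 in arterial-like ECs. Pfkfb3 was likewise lowest in capillary-like ECs, at 9.26, 11.03, 10.3 and 7.72, against 18.9, 18.9, 20.6 and 19.97 in arterial-like ECs. In both genes all 4 arterial values were above all 4 capillary values. Gpi1, glucose-6-phosphate isomerase, reached 136, 196, 226 and 203 CPM in the angiogenic-like cluster. Egln3 was at 0, 3.33, 23.2 and 8.96 in that cluster, at 0, 0.401, 5.13 and 0.607 in the venous-like one, and under 0.5 CPM in every mouse in the other 2.

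**Figure D1:**
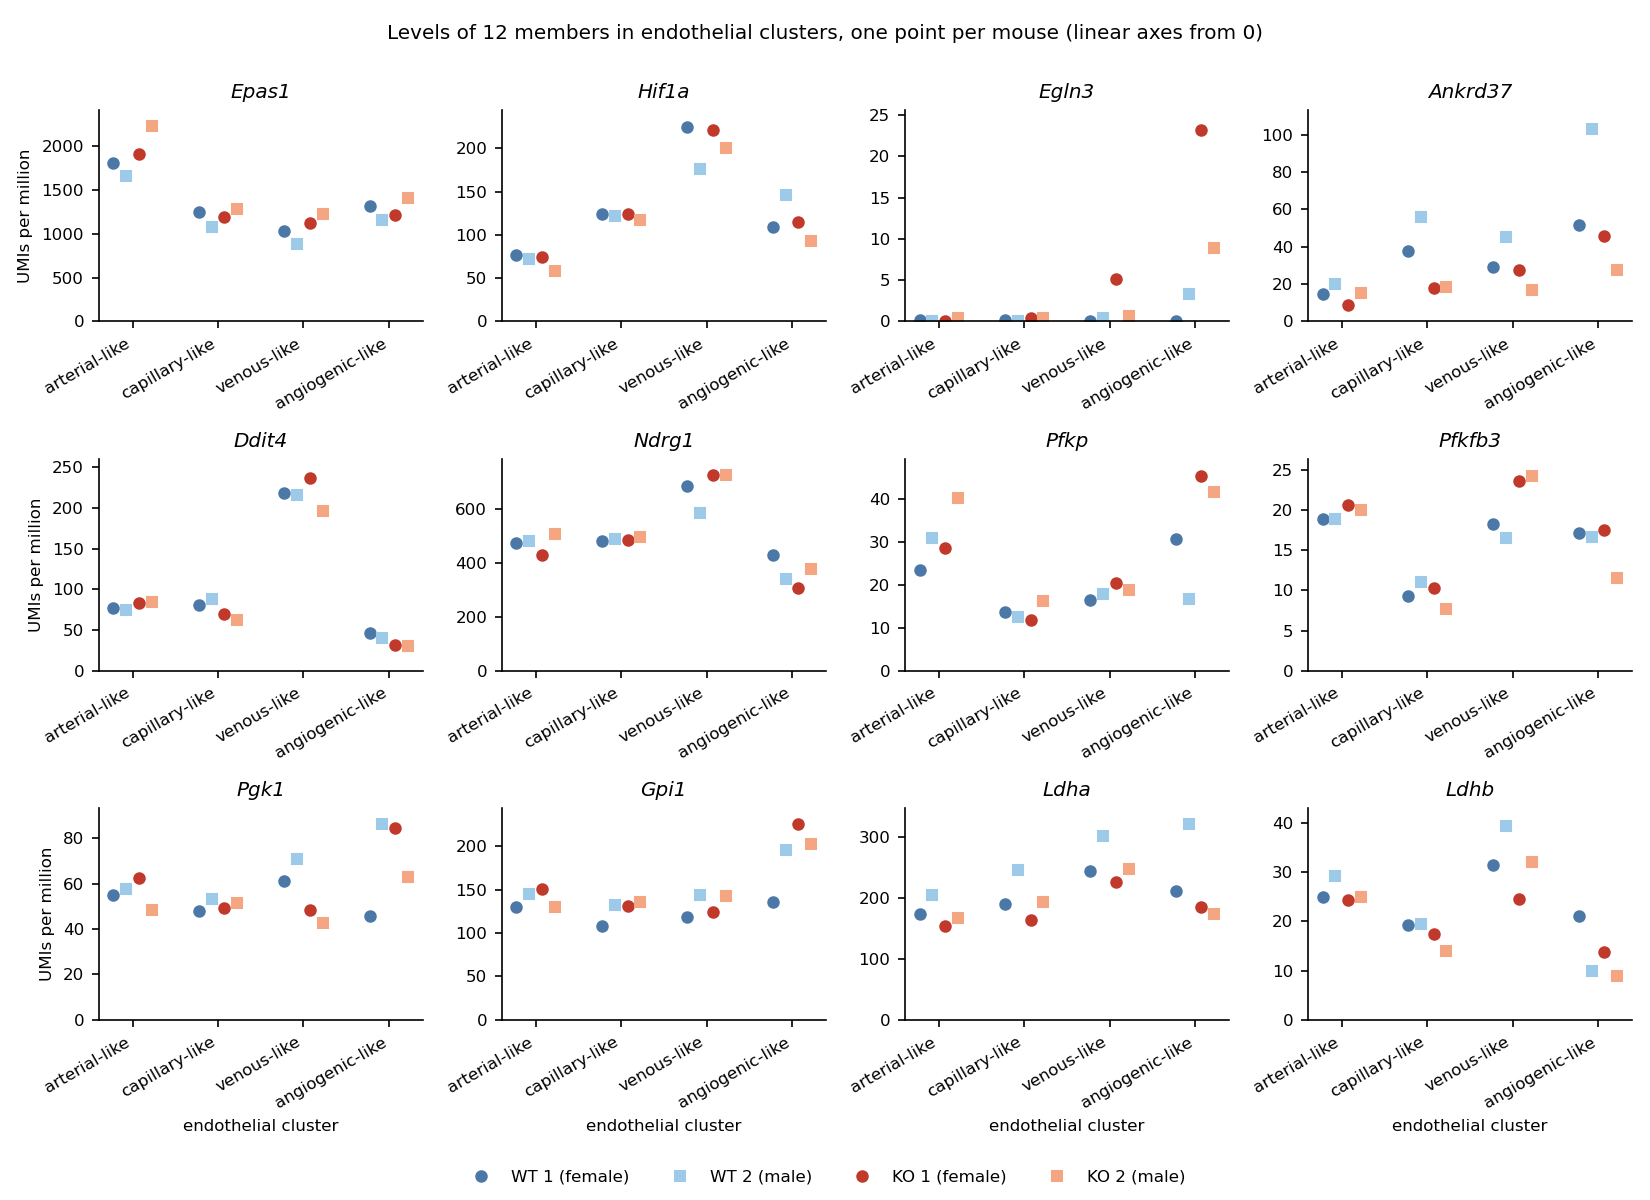
CPM (y axis, linear from 0) of 12 members in 4 endothelial clusters (x axis), 1 point per mouse, circles female and squares male, blue WT and red or orange KO. Epas1 was highest in arterial-like ECs and Hif1a and Ddit4 in venous-like ECs of every mouse, and Egln3 reached 23.2 CPM in the angiogenic-like cluster of KO mouse 1.

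Across cell classes the isoform used at a given step changed. Hexokinase 2 (Hk2) was at 386, 348, 406 and 285 CPM in microglia-like cells and at 0.341, 0.118, 0.266 and 0.728 in ECs, where it stayed below the count filter of the tests. Ldhb, the heart-type lactate dehydrogenase subunit, was at 365, 346, 405 and 326 in microglia-like cells and 22.2, 25.3, 16.5 and 15.2 in ECs. Both genes separated the classes without overlap. Microglia-like cells also had the highest Vhl, at 42.9, 44.7, 45.2 and 35.6 against 15.2, 14.7, 14.6 and 15.6 in ECs, and the highest Hmox1 (heme oxygenase 1), at 76.4, 94.7, 105 and 63.3. Epas1 was 162, 276, 125 and 141 CPM in microglia-like cells, below the other 3 classes in every mouse. Smooth muscle-like cells had the most Pfkp, at 63.6, 65.6, 65.4 and 73.0 CPM.

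**Figure D2:**
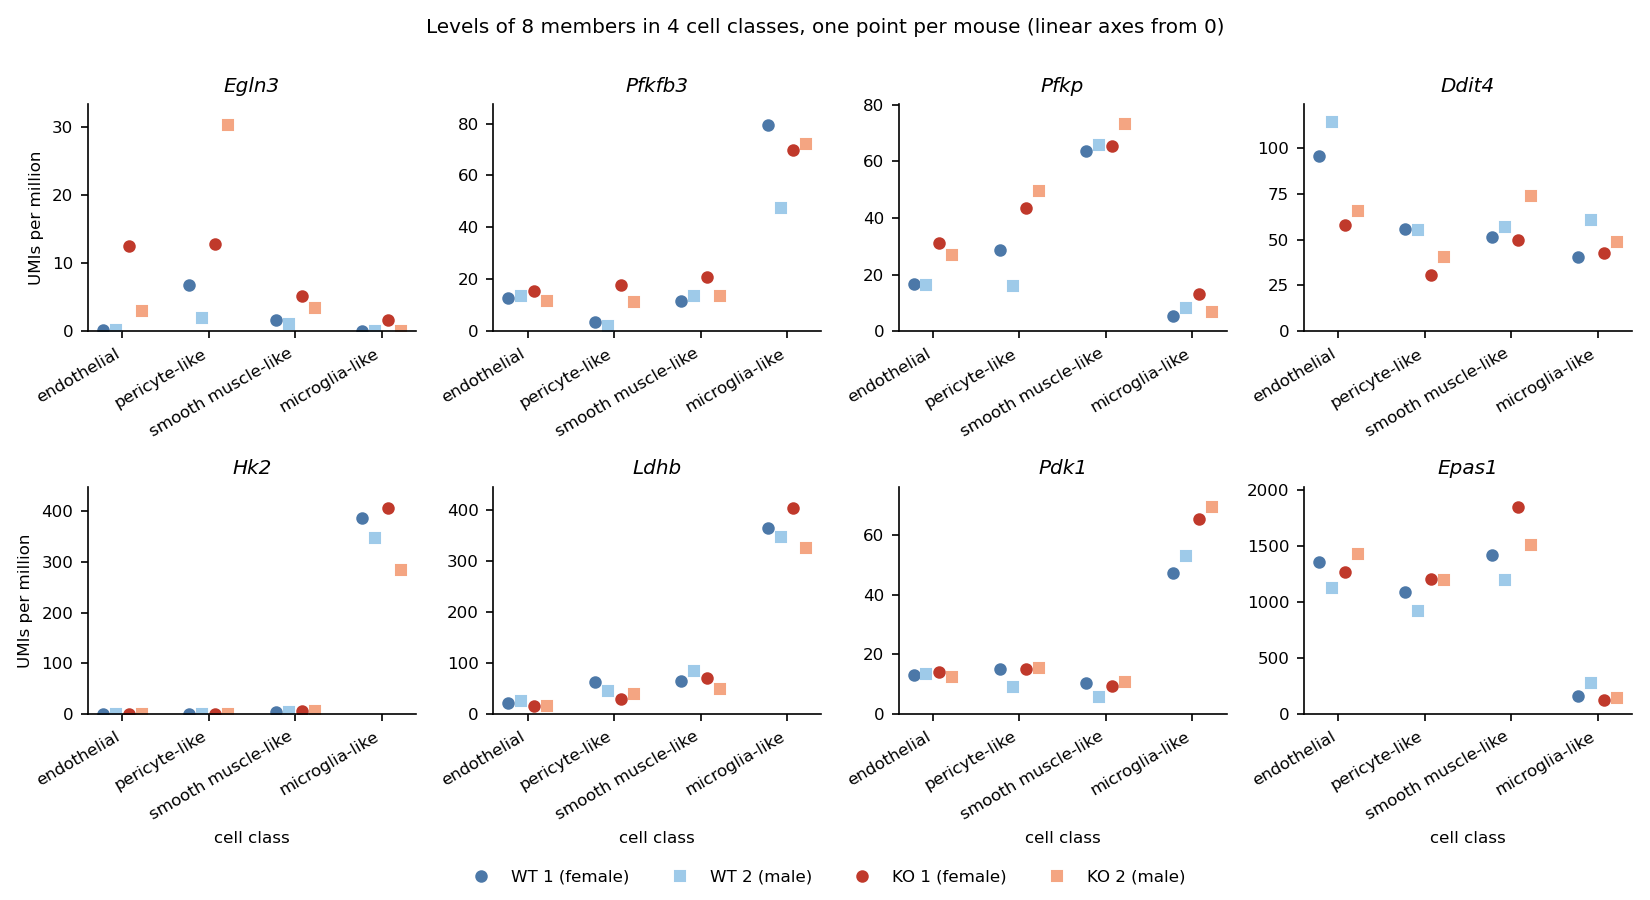
CPM (y axis, linear from 0) of 8 members in ECs and pericyte-like, smooth muscle-like and microglia-like cells (x axis), 1 point per mouse. Hk2, Ldhb and Pdk1 were highest in the microglia-like cells of every mouse, and Epas1 was lowest there.

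Between genotypes, ECs as a whole showed few changes in these genes. Of 32 members tested, 2 rose (Egln3 and Pfkp) and 2 fell (Ddit4 and Ldhb) in KO ECs. Of all 13521 genes tested 5.81% were called, 3.75% higher and 2.06% lower (edgeR's quasi-likelihood test on sums per mouse, Benjamini-Hochberg adjusted p under 0.05). At an unadjusted p under 0.05 there were 8 members, and DESeq2 called 5. For both counts, here and below, the share of all genes is not given, so no excess over it can be read. The median log2 fold change was -0.01 over the members and -0.02 over all genes. From here on, levels beside a test are CPM after the TMM scaling of that comparison, so they differ slightly from the levels by zone and class above. Both KO mice were above both WT mice for 5 tested members and below for 10, where 24.7% and 26.3% of all genes did so. Further below, that share is given at most for the direction that more members took.

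Egln3, the prolyl hydroxylase gene that HIF itself induces (ENSMUSG00000035105, chr12:54178981-54203860 on GRCm38, GENCODE M21), was at 0.116, 0.117, 12.4 and 2.95 CPM in ECs, from 3, 4, 282 and 65 UMIs. Both KO values were above both WT values, and the KO mice also stood well apart from each other. The log2 difference was 5.98 with an SE of 0.82 (adjusted p = 0.00648), and the summed KO rate was 67.1 times the WT rate (95% exact counting interval 32.2 to 168, counting error only). Egln3 passed the count filter only through the KO mice, and its call was lost when either WT mouse was left out (log2 fold change 5.998 and 5.98). Over the 14 alternatives with a value its log2 fold change ran from 2.82 to 6.71. ECs with 10 or more Apln UMIs, 5.47% and 1.11% of the ECs of the KO mice, held 93.6% and 73.8% of their Egln3 UMIs. Pfkp (ENSMUSG00000021196, chr13:6579768-6648777) was at 16.9, 16.3, 30.8 and 26.8 CPM, a log2 difference of 0.79 with an SE of 0.12 (adjusted p = 0.00989). The call for Pfkp was lost without WT mouse 2 (0.76), without the angiogenic-like cluster (0.13) and without ECs holding 10 or more Apln UMIs (0.36).

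Ddit4 (ENSMUSG00000020108, chr10:59949669-59951834) was at 98.0, 113, 57.7 and 65.4 CPM, a log2 difference of -0.78 with an SE of 0.12 (adjusted p = 0.00958). The fall held with each mouse left out in turn and was lost without the angiogenic-like cluster (-0.35). Ldhb was at 22.7, 25.1, 16.3 and 15.2 CPM, a log2 difference of -0.60 with an SE of 0.12 (adjusted p = 0.0279). Its call was lost without WT mouse 1 (-0.66), WT mouse 2 (-0.53), KO mouse 2 (-0.51) and the angiogenic-like cluster (-0.38). In the same ECs the summed level of 14 dissociation-stress genes was 10321 and 9614 CPM in the WT mice and 6529.8 and 6925 in the KO mice, and 5 of the 14 fell, led by Hspa1a at -0.94 and Junb at -0.89. Whether that difference had a part in the values of Ddit4 and Ldhb was not tested.

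Transcripts of the central HIF subunits did not pass the test in ECs. Hif1a was at 127, 125, 118 and 109 CPM (log2 fold change -0.15, adjusted p = 0.465). Epas1 was at 1385, 1118, 1252 and 1426 (0.10, adjusted p = 0.817). The KO values of Hif1a lay just below the WT values, and those of Epas1 overlapped them. Of the enzymes, Pgk1 (phosphoglycerate kinase 1) was at 52.4, 57.6, 68.1 and 53.7 (0.15, adjusted p = 0.631), Ldha at 198, 251, 176 and 188 (-0.30, adjusted p = 0.288) and Pfkfb3 at 13.1, 13.4, 15.3 and 11.5 (0.02, adjusted p = 0.962). The kinase genes Pdk1 and Pdk4 had log2 fold changes of -0.01 (adjusted p = 0.970) and -0.39 (adjusted p = 0.352), and Hmox1 -0.21 (adjusted p = 0.650). The largest differences outside the calls were those of Aldoc at -1.20 (adjusted p = 0.298), a gene near 1 CPM, and Ankrd37 at -0.62 (adjusted p = 0.204).

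Eno1 (enolase 1) ranged from 28.5 to 82.2 CPM, both extremes in KO mice, with 34.03 and 54.4 in the WT mice (0.32, adjusted p = 0.751). Its direction turned without KO mouse 1 (-0.64). The 3′ end of Eno1 is 99.4% identical to that of Eno1b, which took 33, 51, 56 and 70 UMIs in ECs against 878, 1862, 1870 and 628 for Eno1, so the sum of both rows, per plain total, was 34.6, 56.4, 85.4 and 31.8 CPM and kept the spread.

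**Figure D3:**
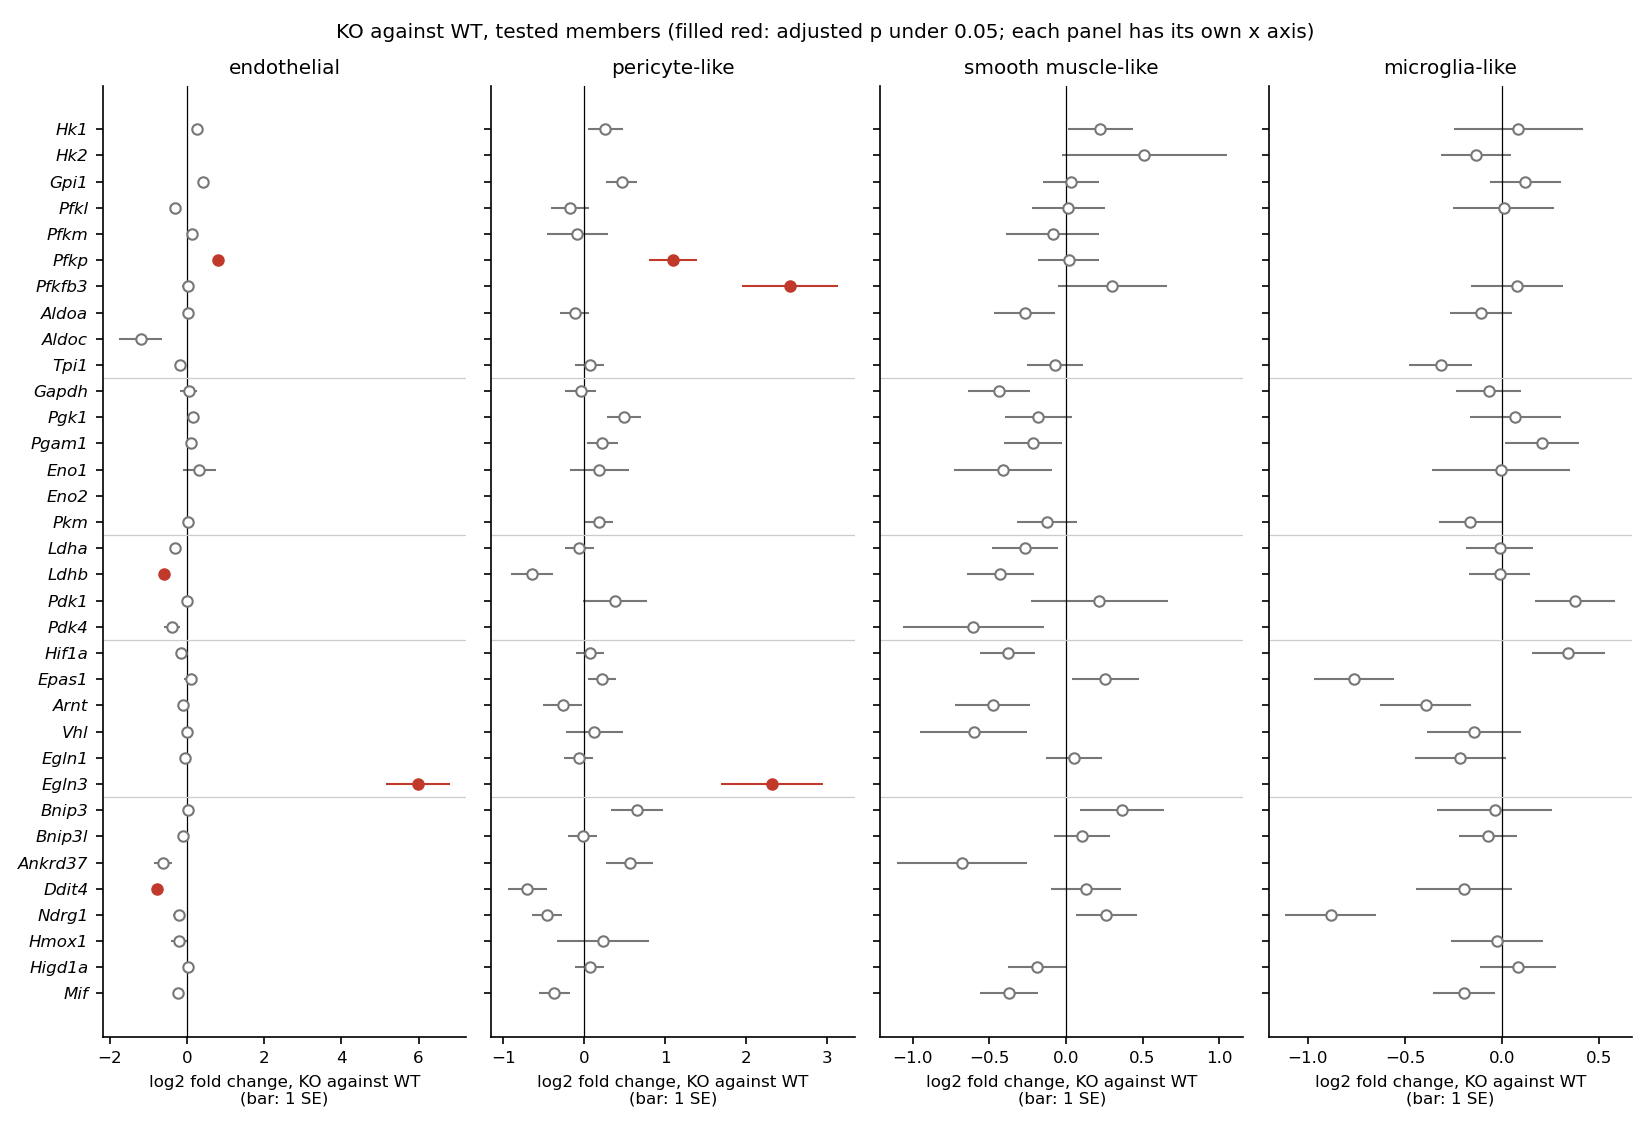
Log2 fold change, KO against WT (x axis, each panel with its own scale), of the tested members (y axis, grouped by role) in ECs and in pericyte-like, smooth muscle-like and microglia-like cells, with bars of 1 SE, filled red where the adjusted p was under 0.05. Egln3 at 5.98 stood apart in ECs, 3 members were called in pericyte-like cells, and none was called in the other 2 classes.

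Within zones the one call was in capillary-like ECs outside the angiogenic-like cluster, where 2.53% of 12410 genes were called and 0.919% were called lower. Ankrd37, an ankyrin repeat gene induced by HIF-1 (ENSMUSG00000050914, chr8:45996902-46005707), was at 38.9, 55.2, 17.5 and 18.5 CPM there, a log2 difference of -1.39 with an SE of 0.16 (adjusted p = 0.000702). Both KO values were below both WT values, and the call held in each of the 15 alternatives run (-1.61 to -1.11). The direction is opposite to that in Apln-rich KO ECs below, and over all ECs the values 32.1, 48.1, 31.9 and 20.6 did not pass the test. Mif (macrophage migration inhibitory factor) at 99.2, 124, 83.5 and 81.7 CPM (-0.43, adjusted p = 0.0760) and Ddit4 at 83.9, 87.2, 68.1 and 62.9 (-0.39, adjusted p = 0.0723) came next without passing. The other large differences were those of Aldoc (-1.003, adjusted p = 0.509), Tpi1 (-0.34, adjusted p = 0.141) and Ldhb (-0.33, adjusted p = 0.334). Of 31 members tested, 8 were at an unadjusted p under 0.05 and DESeq2 called 1. In 11 both KO mice were below both WT mice, where 21.8% of all genes were, and in 2 both were above. Hif1a (-0.05), Epas1 (0.07), Pgk1 (-0.03), Ldha (-0.31), Pdk1 (-0.08), Pdk4 (0.03), Pfkfb3 (-0.22) and Hmox1 (-0.24) had adjusted p from 0.334 to 0.976.

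No member passed the test in arterial-like or venous-like ECs, where 0.522% and 0.591% of all genes were called. In arterial-like ECs 2 of 30 members had an unadjusted p under 0.05 and in venous-like ECs 4 of 30, and DESeq2 called 0 in both. The largest arterial differences were Pdk4 at -0.74, Ankrd37 at -0.53, Mif at -0.50, Pfkl at -0.35, Pfkp at 0.33 and Gapdh at -0.30 (adjusted p 0.215 to 0.659). In venous-like ECs they were Ankrd37 at -0.93, Pdk4 at -0.74, Pgk1 at -0.66, Gapdh at -0.60, Mif at -0.45 and Pfkl at -0.41 (adjusted p 0.175 to 0.592). Venous Pgk1 was at 62.4, 74.4, 46.5 and 41.2 CPM, and venous Ankrd37 at 29.6, 47.5, 26.7 and 16.5, neither with overlap between genotypes. In all 13 of 30 members had both KO mice below both WT mice there, where 21.8% of all genes did, and 5 had both above. In arterial-like ECs 10 members had both below and 5 both above, with no share of all genes given. KO mouse 1 had only 42 venous-like cells. Hif1a, Epas1, Ldha, Pdk1, Pfkfb3 and Hmox1 had log2 fold changes from -0.28 to 0.21 in arterial-like ECs (adjusted p 0.545 to 0.986) and from -0.30 to 0.38 in venous-like ECs (adjusted p 0.532 to 0.981), and arterial Pgk1 was at -0.08 (adjusted p = 0.904).

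Pericyte-like cells had 3 members higher in KO and none lower of 30 tested, where 6.38% of all genes were called, 3.96% higher. Pfkfb3 was at 3.46, 2.01, 17.8 and 11.02 CPM, from 2, 2, 69 and 18 UMIs, a log2 difference of 2.54 with an SE of 0.60 (adjusted p = 0.0116). Egln3 was at 6.92, 2.01, 12.6 and 29.99, from 4, 2, 49 and 49 UMIs, a log2 difference of 2.32 with an SE of 0.63 (adjusted p = 0.0295). From these few UMIs the summed KO rate was 6.31 times the WT rate for Pfkfb3 (95% counting interval 2.38 to 23.7) and 4.74 times for Egln3 (2.10 to 13.2). Pfkp was at 29.4, 16.1, 43.0 and 49.0 CPM, a log2 difference of 1.09 with an SE of 0.29 (adjusted p = 0.0277). Pfkfb3 and Egln3 passed the count filter only through the KO mice. None of the 3 overlapped between genotypes, and 11 of 30 members had both KO mice above both WT mice, where 24.9% of all genes did. The reverse held for 3 members.

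The 3 calls did not hold under several alternatives. DESeq2 called 0 members against 8 at an unadjusted p under 0.05, none remained with cells thinned to 2000 UMIs, where Pfkp turned to -0.10, and none remained without cells holding an Apln UMI, where Pfkfb3 was still at 2.07 (adjusted p = 0.126), Pfkp was at 0.84 (adjusted p = 0.241) and Egln3 was too low to test. Egln3 lost its call without WT mouse 1, WT mouse 2 or KO mouse 2, Pfkfb3 without WT mouse 1, WT mouse 2 or KO mouse 1, and Pfkp without WT mouse 2. Apln, an EC gene, was at 1.69 and 1.01 CPM in the pericyte-like cells of the WT mice and 580 and 291 in those of the KO mice. The part of EC transcripts in the values of these 3 genes was not tested. Next in size were Ddit4 at -0.70 (adjusted p = 0.0944), Bnip3 at 0.65 (adjusted p = 0.295) and Ldhb at -0.64 (adjusted p = 0.171), and erythrocyte markers summed to 9135 CPM in KO mouse 1 against 77.7 to 911 in the others. Hif1a (0.07), Epas1 (0.22), Pgk1 (0.49), Ldha (-0.06), Pdk1 (0.38) and Hmox1 (0.24) had adjusted p from 0.207 to 0.908.

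In smooth muscle-like cells edgeR called 0 of 30 members and 0% of all genes, with 2 members at an unadjusted p under 0.05 and 0 called by DESeq2. Both KO mice were above both WT mice for 5 members and below for 9, with no share of all genes given. Ankrd37 at -0.68, Pdk4 at -0.60, Vhl at -0.60, Hk2 at 0.51, Arnt at -0.48 and Gapdh at -0.44 were the largest differences (adjusted p 0.896 to 0.933). Hif1a (-0.38), Epas1 (0.26), Pgk1 (-0.18), Ldha (-0.27), Pdk1 (0.22) and Pfkfb3 (0.30) had adjusted p from 0.896 to 0.970, and KO mouse 1 gave only 52 cells. Ddit4 was at 53.2, 58.7, 47.1 and 73.1 CPM (0.13), overlapping between genotypes, and its genotype effect differed from that in ECs by 0.90 on the log2 scale (SE 0.19, adjusted p = 0.0235 for the interaction, where 0.811% of genes were called, and DESeq2 also called 1 member). That call was lost without WT mouse 1, WT mouse 2 or KO mouse 2. Against ECs, pericyte-like cells gave 0 member interactions (3 at an unadjusted p under 0.05, DESeq2 0), with Pfkfb3 at 2.51 (adjusted p = 0.127) and Egln3 at -3.38 (adjusted p = 0.629), where 0.356% of genes were called.

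Microglia-like cells had 0 of 27 members called by edgeR and 0 by DESeq2, with 2 at an unadjusted p under 0.05, where 0.333% of all genes were called. Ndrg1 was at 71.3, 89.9, 36.6 and 52.2 CPM (-0.88, adjusted p = 0.167) and Epas1 at 167, 278, 123 and 138 (-0.76, adjusted p = 0.188). In the same cells 10 EC markers, all detected in every mouse, summed to 2644 and 3557 CPM in the WT mice and 1465 and 2234 in the KO mice, and their part in both values was not tested. Neither gene overlapped between genotypes, and 6 of 27 members had both KO mice below both WT mice, where 19.3% of all genes did. The reverse held for 2 members. Smaller differences were those of Arnt (-0.39), Pdk1 (0.38), Hif1a (0.34) and Tpi1 (-0.32), with adjusted p from 0.688 to 0.743, and Pgk1 (0.07), Ldha (-0.01), Pfkfb3 (0.08) and Hmox1 (-0.03) had adjusted p from 0.973 to 0.994. Egln3 had 0, 0, 3 and 0 UMIs there and was not tested. The microglia interaction with ECs called 0 members (7 at an unadjusted p under 0.05, DESeq2 0), where 1.32% of genes were called.

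Most of the calls among these genes lay within KO endothelium, between classes of Apln level. Apln encodes apelin, a peptide made by sprouting tip cells, and ECs of the 2 KO mice were split into cells with 0 UMIs of it (1694 and 3840 cells), 1 to 9 (277 and 262) and 10 or more (114 and 46). The WT mice had 1 and 3 ECs with 10 or more, too few for a WT class. Of the KO cells in the top class, 111 of 114 and 46 of 46 were in the angiogenic-like cluster. They were also the deepest cells, with median UMIs per cell of 23166.5 and 11786 against 6965 and 3792.5 in cells without Apln. Between 10 or more and 0, 17 members rose and 4 fell of 31 tested, against 21.1% of all genes higher and 19.5% lower, and the median log2 fold change was 0.42 over the members and -0.03 over all genes. The classes come from the same 2 libraries, with the mouse as a term in the fit. They were set by the level of 1 transcript, and whether Apln shares regulation with the members was not tested.

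**Figure D4:**
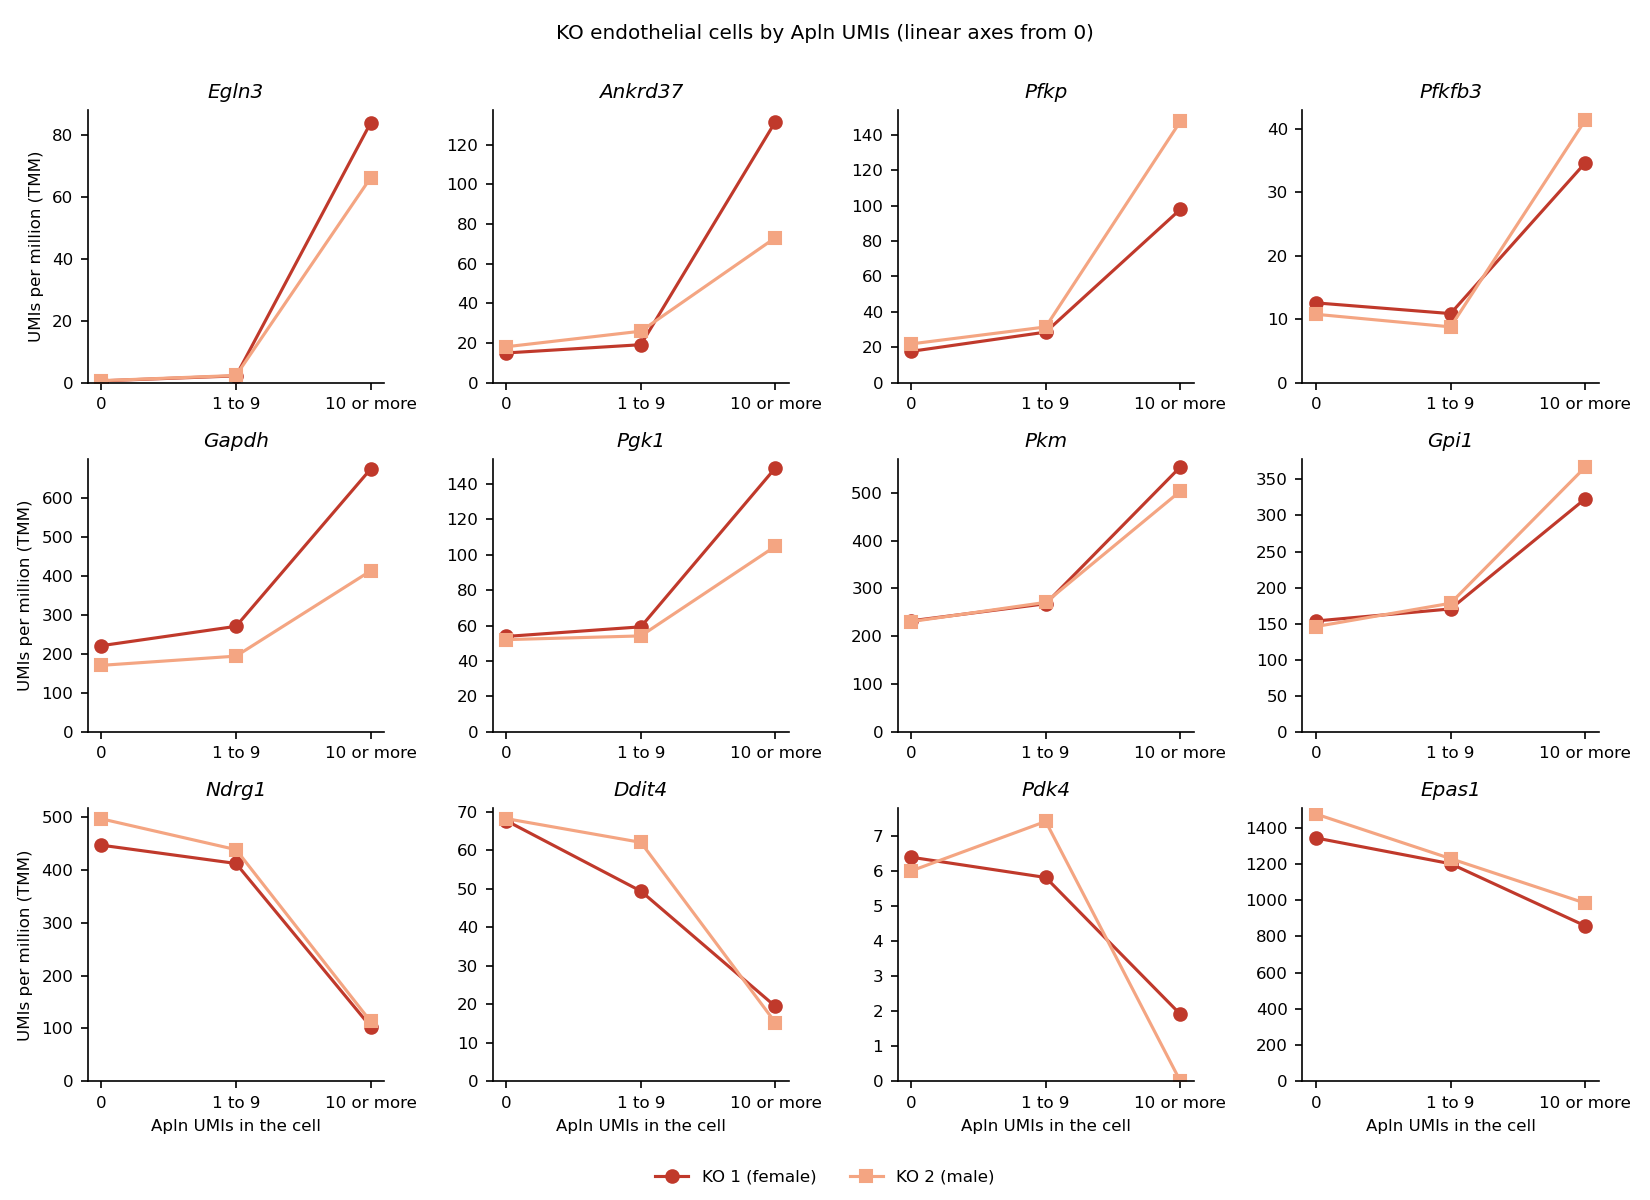
CPM after TMM scaling (y axis, linear from 0) of 12 members in KO ECs with 0, 1 to 9 and 10 or more Apln UMIs (x axis), 1 line per KO mouse. Egln3 went from 0.581 and 0.631 to 83.9 and 66.2, and Ndrg1, Ddit4, Pdk4 and Epas1 ended below their level in cells without Apln in both mice.

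Egln3 showed the steepest difference. It was at 0.581, 2.18 and 83.9 CPM in the cells of KO mouse 1 with 0, 1 to 9 and 10 or more Apln UMIs, and at 0.631, 2.32 and 66.2 in those of KO mouse 2. In both mice nearly all of the increase lay between the middle and the top class, and Egln3 passed the count filter only through the top class. The log2 difference of the top class was 6.91 with an SE of 0.24 (adjusted p = 2.91e-21), 138 times the rate of cells without Apln in KO mouse 1 (95% counting interval 71.7 to 306) and 103 times in KO mouse 2 (54.1 to 214). Top-class cells were 5.47% and 1.11% of the ECs and held 93.6% and 73.8% of their Egln3 UMIs. An Egln3 UMI was found in 38.6% and 30.4% of top-class cells, 0.472% and 0.313% of cells without Apln, and 1.13% and 0% of microglia-like cells of the same mice. In KO mouse 1 the share in cells without Apln (median 6965 UMIs a cell) was below that in microglia-like cells (6265). Against all ECs of both WT mice, the Egln3 rate in cells without Apln was 5.08 times as high in KO mouse 1 (95% counting interval 1.68 to 16.0). In KO mouse 2 it was 5.40 times as high (1.96 to 16.2). These ratios rest on 9 and 12 UMIs against 7 in the WT mice, and the part of background transcripts in them was not tested.

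Ankrd37 followed, at 15.0, 19.1 and 132 CPM in KO mouse 1 and 18.1, 25.9 and 73.1 in KO mouse 2, a log2 difference of 2.80 with an SE of 0.16 (adjusted p = 3.8e-16). Its promoter window above is among those with 4 core matches. Mif, at 81.0, 100.2 and 184 and at 80.4, 83.8 and 161, rose by 1.12. Higd1a, a mitochondrial hypoxia-inducible gene, rose by 0.24 (adjusted p = 0.0248), the smallest call, and its direction turned with cells thinned to 2000 UMIs (-0.066). Hif1a itself was at 112, 122 and 142 and at 108, 127 and 116, a log2 difference of 0.29 with an SE of 0.09 (adjusted p = 0.00975) whose size in KO mouse 2 alone was 0.12.

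Among the glycolytic enzymes 6 of 8 preparatory and 4 of 5 payoff members rose and none fell. Pfkp was at 17.7, 28.6 and 97.9 CPM in KO mouse 1 and 21.9, 31.5 and 148 in KO mouse 2, a log2 difference of 2.57 with an SE of 0.12 (adjusted p = 5.13e-18). Its sister isoforms moved less, Pfkl by 0.42 (adjusted p = 0.00517; -0.024 without cells holding markers of another type) and Pfkm by -0.00 (adjusted p = 0.994). Pfkfb3 was at 12.6, 10.9 and 34.7 and at 10.8, 8.80 and 41.4, a log2 difference of 1.60 with an SE of 0.18 (adjusted p = 9.7e-09). Its middle class lay below the class without Apln in both mice, so the rise was in the top class alone.

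Gapdh, the first payoff enzyme, was at 221, 270.4 and 673 CPM in KO mouse 1 and 170.4, 194 and 412 in KO mouse 2, a log2 difference of 1.48 with an SE of 0.07 (adjusted p = 2.53e-17). Its near-identical copies Gm15294, Gm3839 and Gm10358 took at most 2 UMIs in any mouse's ECs. Peli2, 97.1% identical over 173 bases, took 706, 736, 470 and 477. Pgk1 was at 53.9, 59.3 and 149 and at 52.1, 54.2 and 105 (1.34, SE 0.10, adjusted p = 8.3e-13). Pkm (pyruvate kinase) was at 232, 268 and 554 and at 231, 271 and 503 (1.21, SE 0.07, adjusted p = 7.53e-16). In each of these enzymes every top-class value was above every other value. Gpi1 was at 154, 170.4 and 323 and at 146, 178 and 367 (1.17, SE 0.08, adjusted p = 2.06e-14), with 0 core matches in its promoter window. Aldoa, aldolase A, rose by 1.04, Tpi1 (triosephosphate isomerase) by 0.77 and Pgam1 (phosphoglycerate mutase) by 0.70. Hk1 at 0.16 (adjusted p = 0.289) and Eno1 at 0.19 (adjusted p = 0.182) did not pass, and Hk2, Eno2, Aldoc and the second Aldoa row had too few UMIs to test.

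At the fate of pyruvate the kinases Pdk1 and Pdk4 went opposite ways. Pdk1 was at 12.97, 12.6 and 19.7 CPM and at 12.05, 14.8 and 15.2, a log2 difference of 0.56 with an SE of 0.21 (adjusted p = 0.0340). Pdk4, which is raised by fasting and lipid signals, was at 6.39, 5.81 and 1.91 and at 5.996, 7.41 and 0, a log2 difference of -2.01 with an SE of 0.54 (adjusted p = 0.00300), from 6 UMIs in the top class of KO mouse 1 and 0 in that of KO mouse 2. The counts allow a ratio of 0.102 to 0.644 in KO mouse 1 and up to 0.850 in KO mouse 2. Ldha, the muscle-type lactate dehydrogenase subunit, was at 160.2, 165 and 265 and at 189, 194 and 194 (0.51, SE 0.10, adjusted p = 4.76e-05). The Ldha difference came from KO mouse 1, and without that mouse it was 0.05. Ldhb was at -0.50 (adjusted p = 0.0911).

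The genes that fell include members usually counted as hypoxia-induced. Ndrg1 was at 447, 413 and 103 CPM in KO mouse 1 and 497, 439 and 113 in KO mouse 2, a log2 difference of -2.13 with an SE of 0.09 (adjusted p = 7.49e-20). Ddit4 was at 67.7, 49.4 and 19.4 and at 68.2, 62.1 and 15.2 (-1.85, SE 0.16, adjusted p = 2.18e-11), with 2 core matches in its promoter window. Both genes were lower in each mouse by more than the spread between the mice. Epas1 fell from 1344 and 1476 CPM to 858 and 983 (-0.62, SE 0.06, adjusted p = 5.64e-10). Arnt (-0.33, adjusted p = 0.0666), Vhl (0.04), Egln1 (-0.02), Bnip3 (0.11), Bnip3l (-0.09) and Hmox1 (0.42, adjusted p = 0.231) did not pass.

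Of the 21 calls, all kept their sign in either KO mouse alone, a comparison with no test. DESeq2 called 16, without Hif1a, Higd1a, Pdk1, Pdk4 and Pfkl, and within the angiogenic-like cluster alone 20 were called. With every cell thinned to 2000 UMIs, which kept 114 of 114 and 46 of 46 top-class cells and 1599 of 1694 and 3253 of 3840 cells without Apln, 11 were called, Pgk1 at 0.74, Pgam1 at 0.32 and Hif1a at 0.08 no longer passed, and Egln3, Pfkfb3, Pdk1 and Pdk4 were too low to test. Without cells holding over 20% marker UMIs of another type, which left 65 of 114 and 24 of 46 top-class cells but 1645 of 1694 and 3447 of 3840 cells without Apln, 14 were called, and Mif (0.29), Tpi1 (0.25) and Pgam1 (0.30) were among those lost.

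The middle class showed much less. Between 1 to 9 and 0 Apln UMIs 3 members rose and 1 fell of 31, against 3.93% of all genes higher and 2.62% lower. Egln3 was at 1.79 (SE 0.53, adjusted p = 0.0331), from only 9 and 5 UMIs against 9 and 12, and entered the test only through the top class. Pfkp rose by 0.63 (SE 0.14, adjusted p = 0.00283) and Gapdh by 0.24 (SE 0.07, adjusted p = 0.0487), and Epas1 fell by 0.21 on the log2 scale (adjusted p = 0.0218). All 4 had the same direction in the top class. Ldhb at -0.53 (adjusted p = 0.121) and Pfkm at 0.50 (adjusted p = 0.0699) were the next in size. In all 13 members had an unadjusted p under 0.05, DESeq2 called 1, and a fit with no term for the mouse called 0.

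**Figure D5:**
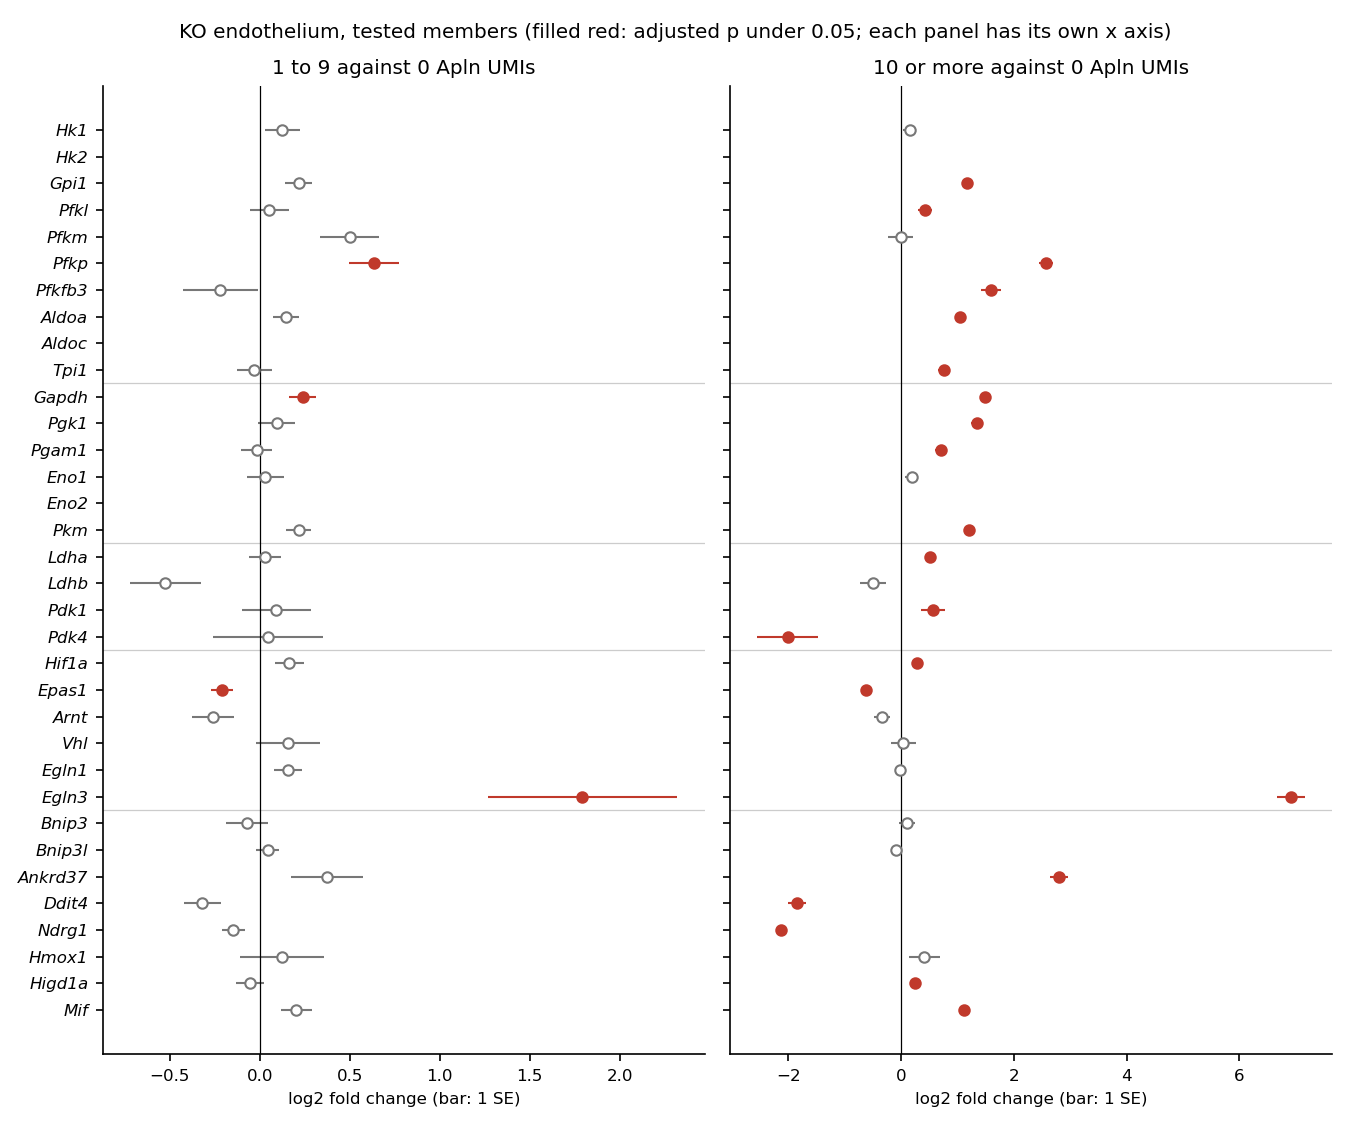
Log2 fold change (x axis, each panel with its own scale; bar, 1 SE) of the tested members (y axis, grouped by role) in KO ECs, 1 to 9 against 0 Apln UMIs on the left and 10 or more against 0 on the right, filled red where the adjusted p was under 0.05. On the right 17 members were called higher and 4 lower, with Egln3 at 6.91.

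Other genes of these pathways were also called in the comparison of 10 or more against 0. Their lists hold no member but were chosen with earlier results of these data known, so the counts are a description. Of 22 other HIF targets tested, 12 rose and 4 fell, where 21.1% of all genes were higher and 19.5% lower, and those that rose included Stc2 at 7.06, Loxl2 at 5.23, Adm at 5.08, Cxcr4 at 4.66 and Edn1 at 1.74. Among 17 genes of glucose and lactate handling 3 rose and 4 fell, shares near those of all genes. Slc16a3, which encodes the lactate exporter MCT4, rose by 3.81 and Bpgm by 1.48, while Slc16a1 (MCT1, log2 fold change -2.20), its chaperone Bsg (-1.09) and the glucose transporter gene Slc2a1 (-0.95) fell. In ECs as a whole, KO against WT, 3.75% of all genes were called higher and 2.06% lower. There 5 of 25 other HIF targets rose (among them Cxcr4 3.78, Loxl2 2.21, Adm 1.93 and Edn1 1.15) and none of the 20 other glycolysis and transport genes was called. In capillary-like ECs outside the angiogenic-like cluster, where 2.53% of all genes were called and 0.919% were called lower, Cxcr4 rose (2.32) while Bhlhe40 (-0.63) and Adm (-0.56) fell.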

How the data were processed

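The deposited values were UMI counts per gene and barcode, which the authors made with Cell Ranger 6.1.2 on mm10 per the labels, without normalization (the matrix headers name version 6.1.1). Barcodes were kept when they had over 500 genes and less than 10% of UMIs from mitochondrial genes. The 4 libraries held 32896366, 42903731, 32558112 and 31753395 UMIs in kept cells (WT mouse 1, WT mouse 2, KO mouse 1, KO mouse 2) and shared 0 to 13 barcodes per pair. Counting intervals and floors (3 counts where none were seen) cover counting error only. Cells were clustered with Seurat 5.3.0 in R 4.3.3 on 2000 variable genes without the members and other listed genes, with 50 principal components, first over all cells (resolution 0.2) and then over ECs alone (0.4). Clusters were named from marker lists and called like that type, so shares can differ from those of the study. Scrublet (scanpy 1.11.5, Python 3.11.15) called 5 of 17999 cells doublets, so its threshold had not worked, and no cell was removed in the main analysis.

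UMIs were summed per mouse and class, because cells of 1 mouse are not replicates. KO was compared with WT, and KO ECs by Apln UMIs with the mouse as a term, by edgeR 4.0.16 (limma 3.58.1): filterByExpr, TMM scaling, quasi-likelihood test, Benjamini-Hochberg adjustment over all genes tested, threshold 0.05. Fold changes and the levels printed beside them are TMM-scaled, and levels by zone or class are CPM of the plain total. The steps were tested on simulated data with 200 changed genes. Alternatives were DESeq2 1.42.0, other scalings and count filters, cells thinned to 2000 UMIs, leaving out the 5% of cells per library with the highest doublet score, cells with over 20% marker UMIs of another type or cells at 5% or more mitochondrial UMIs, Apln per 10000 UMIs, resolution 0.6, and each mouse left out. With 2 mice a genotype, p-values rest on the spread between mice, with each gene's variance moderated by edgeR toward a trend over all genes. In the Apln comparisons they concern differences between classes within the 2 KO mice.

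The members and lists were chosen with earlier results of these data known. In each comparison other than the interactions every member past the threshold was named. Where fewer than 6 passed, those with the largest absolute log2 fold change were added until 6 were named. In each cell class and in the top Apln class Hif1a, Epas1, Pgk1, Ldha, Pdk1, Pdk4, Pfkfb3, Egln3 and Hmox1 were also given where tested. For the interactions this rule was not followed, so members not named there need not have small differences. Near-identical copies were found with BLAST 2.17.0+ over the last 500 bases of GENCODE M21 transcripts. Figures were drawn with matplotlib 3.10.9.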

Additional observations from a re-analysis of the deposited data

Results flagged for a closer look

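The genotype effect on Ddit4, the mTORC1 inhibitor gene, differed between cell classes by a test of the difference itself. In ECs it was at 98.0 and 113 CPM in the WT mice and 57.7 and 65.4 in the KO mice, and in smooth muscle-like cells at 53.2 and 58.7 in the WT mice and 47.1 and 73.1 in the KO mice. The interaction term of edgeR's quasi-likelihood test, smooth muscle-like minus ECs, was 0.90 (log2, SE 0.19, adjusted p = 0.0235), and DESeq2 also called it. The call was lost without WT mouse 1, WT mouse 2 or KO mouse 2, with cells thinned to 2000 UMIs (1.30), without the highest doublet scores (0.97) and under 5% mitochondrial UMIs (0.77). The summed dissociation-stress genes were at 16449 and 16428 CPM in the smooth muscle-like cells of the WT mice and 12235 and 17261 in those of the KO mice, and their part in the difference was not tested.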

How the results depend on the processing

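Counts of members called moved by more than 1.5 times as follows. Without a filter on low counts they went from 4 to 7 in ECs, 1 to 4 in capillary-like ECs, and 0 to 2 in venous-like ECs and in microglia-like cells, and for the interactions from 0 to 3 (pericyte-like), 1 to 3 (smooth muscle-like) and 0 to 2 (microglia-like). Without the angiogenic-like cluster ECs gave 1, Ankrd37 at -1.20, and at resolution 0.6 venous-like ECs gave 1. The 3 calls in pericyte-like cells became 0 with DESeq2, 0 thinned, 1 under 5% mitochondrial UMIs and 0 without cells with an Apln UMI. The smooth muscle interaction was 0 thinned, 0 without the highest doublet scores and 0 under 5% mitochondrial UMIs. For 10 or more against 0 Apln UMIs 21 became 11 thinned, and for 1 to 9 against 0 the 4 became 1 with DESeq2, 2 thinned, 7 without the highest doublet scores, 2 without cells with markers of another type, 0 with no mouse term and 2 within the angiogenic-like cluster. At resolution 0.6 the members highest in a zone became 3 (arterial-like), 3 (capillary-like, with Hk2, which reached 1 CPM only there) and 6 (venous-like), and 3 were highest in unnamed clusters. Leaving out 1 mouse at a time gave 1 to 7 calls in ECs, 0 to 1 in arterial-like, 2 to 6 in capillary-like and 0 to 7 in venous-like ECs, 0 to 3 in pericyte-like, 0 in smooth muscle-like and 0 to 1 in microglia-like cells, and 0 to 2 (pericyte-like), 0 to 4 (smooth muscle-like) and 0 to 2 (microglia-like) interactions, where a lone mouse of a genotype is assumed to vary like the others.

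Direction turned for Eno1 without KO mouse 1 (-0.64 in ECs and -0.80 in capillary-like ECs, against 0.92 and 0.64 without KO mouse 2), for Pfkp in pericyte-like cells thinned (-0.10), for Higd1a in the top Apln class thinned (-0.066), for Pfkl (-0.024) and Eno1 (-0.40) there without cells with markers of another type, and for Pfkp (-0.17) and Ndrg1 (0.26) in the middle class without the angiogenic-like cluster. The cause was not tested. With replicate number as a block, 4, 0, 1, 0, 3, 0 and 0 members were called (ECs, arterial-like, capillary-like, venous-like, pericyte-like, smooth muscle-like, microglia-like), the counts without it. Deviations of same-numbered mice correlated at 0.10 (Pearson) and -0.14 (Spearman) over 13521 genes in ECs, and at -0.03 to 0.16 (Pearson) over all 7 comparisons. With only 2 mice a genotype and no label that ties a number to a shared batch, the numbers were not taken as pairs. The following 3 cell sets were chosen after seeing the data: ECs without 10 or more Apln UMIs, the angiogenic-like cluster alone, and pericyte-like cells without an Apln UMI. Leaving out cells with markers of another type gave no value for pericyte-like cells (1, 1, 6 and 5 cells left) or the interactions, nor did leaving out the angiogenic-like cluster for the top Apln class (3 and 0 cells). Depth limits Hk2 and Eno2 in ECs and Egln3 in WT ECs, which rest on few UMIs.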

Other observations

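In KO ECs with 10 or more against 0 Apln UMIs, where 21.1% of all genes were called higher and 19.5% lower, the genes of pyruvate oxidation and of HIF regulation were called higher at shares near that of all genes. Of 28 genes of pyruvate dehydrogenase and the tricarboxylic acid cycle 6 rose, among them Suclg2 at 0.71, Mpc1 (a subunit of the mitochondrial pyruvate carrier) at 0.58, Mdh2 at 0.40, Sdhd at 0.32 and Suclg1 at 0.29, and Pdk2 fell at -0.74. Of 12 further genes of HIF regulation Siah2, a ubiquitin ligase acting on the prolyl hydroxylases, rose by 0.76, Eloc by 0.47 and Elob by 0.28, and Egln2 (-0.37) and Ep300 (-0.27) fell.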
